A study of Solanum lycopersicum with 8 samples.

Results

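A group of 60 genes, of 29345 listed, was higher in leaves of HsfA2-suppressed tomato plants than in wild type leaves, with and without heat, and differed little between heated and control plants. The genes were chosen by their measured values. In each of both leaf pairs (A2AS against WT, control and heat) the log2 ratio of A2AS to WT was at least 1 and the mean of the pair at least 10 CPM (tags scaled to a library total of 1000000). In all 4 heat pairs (leaf and anther, WT and A2AS) the log2 ratio of heat to control was under 0.8 in size. The leaf conditions alone left 110 genes and the heat condition 62, of which 2 belonged to 15 IDs set aside by the rule. The leaf genotype ratios and the heat ratios below therefore describe the choice and carry no test. The genotype ratios in anthers and the position of the genes were not used to choose them. The heat limit does bound how far the genotype ratio can differ between control and heated anthers. The ratios between tissues were not used themselves, but share the leaf levels that the rule set.

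The plants were 8-week-old tomato (Solanum lycopersicum cv Moneymaker), either wild type (WT) or A2AS, the study's transgenic genotype with suppressed HsfA2. The labels do not give the promoter of the transgene, the number of lines or whether plants were pooled. Young leaves and anthers of several stages were taken from control plants and from plants given 1 h at 39 °C and then 1.5 h of recovery at 24 °C. The 8 groups of tissue, genotype and treatment held 1 library apiece. The assay was MACE, a tag method that reads polyadenylated RNA near its 3′ end. No difference between libraries can thus be set against replicates, and fewer cells of a type cannot be told apart from less RNA per cell.

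HsfA2 is a heat stress transcription factor that accumulates under heat and, with HsfA1, maintains the transcription of chaperone genes such as those of small heat shock proteins. A gene that is higher when such a factor is suppressed, and that does not respond to a heat episode, lies outside this chaperone response in its pattern. The deposited tables name genes only by their Solyc IDs. No ID of this form occurs in the reference gene table, so the members are given without names or functions, and their sequences are not shown.

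HsfA2 itself (Solyc08g062960 in published tomato nomenclature) was lower in A2AS leaf and did not follow the label in heated anthers. WT leaf had 10.3 CPM before and 21.7 after heat, whereas A2AS leaf had 2.25 and 2.72. In anthers the levels were 1.93 in WT control and 1.08 in A2AS control, and 22.3 in WT heat and 39.3 in the heated library labelled A2AS. Values from that last library are given with this limit. The smallest library, heated A2AS leaf, held 6243965 reads, for which 3 reads equal 0.480 CPM. The other 7 held 11534512 to 14764187 reads, and there 3 reads equal 0.203 to 0.260 CPM. The 3 listed Rubisco small subunit genes, markers of green tissue, each stood higher in every leaf library than in any anther library. In leaf they were also higher in A2AS than in WT in both pairs, at 4079 against 1480 CPM for Solyc02g063150, 21574 against 16047 for Solyc02g085950 and 12429 against 6065 for Solyc03g034220 in controls. The part of green tissue content in the leaf ratios of the members was not tested. LAT52, MS10 and MS32, markers of pollen and tapetum, reached at most 2.67 CPM in leaf. In anthers LAT52 had 295 CPM (control) and 106 (heat) in WT, against 136 and 163 in A2AS. MS10 had 16.0 and 26.7 CPM in WT anthers against 10.1 and 17.2 in A2AS. MS32 had 19.2 and 25.7 against 17.6 and 18.6. The part of pollen and tapetum content in the anther ratios of the members was not tested. Intervals in brackets are exact 95% intervals and cover counting error only.

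In A2AS leaf the 60 genes together held 11819 CPM in control and 12353 in heated plants, against 4876 and 4054 in WT leaf. The sums were thus 2.42-fold and 3.05-fold higher in A2AS. In anthers the sums were 12150 CPM in WT and 10422 in A2AS controls, and 11270 and 10405 after heat. Without the members most abundant there, Solyc01g006400 and Solyc09g084470, the anther sums were 6237 in WT and 6297 in A2AS controls, and 5602 and 5696 after heat, so the lower sums in A2AS rest on these genes. All 60 genes were higher in both A2AS leaf libraries than in both WT leaf libraries, so that the genotypes did not overlap in leaf, as the rule largely fixes. The median log2 ratio of the members was 1.29 in control leaf and 1.46 in heated leaf. The 8033 genes that met the level condition in both leaf pairs, called leaf-expressed here, had medians of −0.21 and −0.31. The members thus lay 1.51 and 1.77 above the median leaf-expressed gene. Under median-ratio scaling every leaf ratio shifts up, by 0.22 in control and 0.32 in heated leaf.

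At least 2-fold higher levels in A2AS were found for 1.93% of genes in control leaf, for 3.44% in heated leaf and for 1.37% in both, and these shares include the members by construction. The heated pair had the larger ratio for 41 members and the control pair for 19, and the median of this difference was 0.14 log2. On the log2(CPM + 1) scale, a ratio of at least 4-fold was seen for 1 member in control leaf and for 13 in heated leaf, and for 1 in both.

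The single gene past 4-fold in both leaf pairs was Solyc06g061200. Its WT leaf levels were 3.90 CPM in control and 3.25 in heated plants, and its A2AS leaf levels 32.3 and 29.5. A2AS was 8.29-fold (6.09 to 11.5) higher in control and 9.07-fold (6.52 to 12.9) higher in heated leaf. Its anther levels, 52.6 and 72.3 CPM in WT and 50.5 and 55.7 in A2AS, were all above the leaf levels, so A2AS leaf lay between WT leaf and anther.

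Solyc09g089530 had the next largest mean leaf ratio, with a log2(CPM + 1) ratio of 1.92 in control leaf, short of 4-fold on that scale. WT leaf had 9.02 CPM in control and 5.66 in heated plants and A2AS leaf 36.8 and 44.2, which is 4.08-fold (3.30 to 5.09) and 7.82-fold (6.09 to 10.2) higher. Solyc02g081980 had 34.7 and 26.1 CPM in WT leaf and 125 and 147 in A2AS leaf, or 3.61-fold and 5.66-fold higher. In anthers Solyc02g081980 had 253 and 294 CPM in WT and 224 and 268 in A2AS, above all its leaf levels. Solyc09g089530 was likewise above its leaf levels in all anther libraries, with values given below.

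The next 5 members by leaf ratio were instead called lower in anther than in leaf over the 4 tissue pairs described below. These calls include the A2AS leaf levels that the rule raised. In the WT pairs the log2 ratio of anther to leaf was −0.28 and 0.03 for Solyc02g086910. It was −1.61 and −0.92 for Solyc10g006900 and −1.60 and −1.65 for Solyc06g005710. Solyc10g006900 had 170 CPM (control) and 116 (heat) in WT leaf, with 526 and 643 in A2AS leaf, 3.10-fold (2.95 to 3.26) and 5.52-fold (5.21 to 5.86) higher. Solyc12g009200 was at 40.6 and 23.6 CPM in WT leaf against 125 and 130 in A2AS. Solyc12g019550 was at 71.4 and 67.9 against 211 and 323. In each of these the WT value was lower, or nearly the same, after heat and the A2AS value higher, which widened the heated ratio. Solyc06g005710, at 67.8 and 59.4 CPM in WT and 218 and 251 in A2AS, and Solyc02g086910, at 33.3 and 28.8 against 105 and 127, had the same order.

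**Figure D1:**
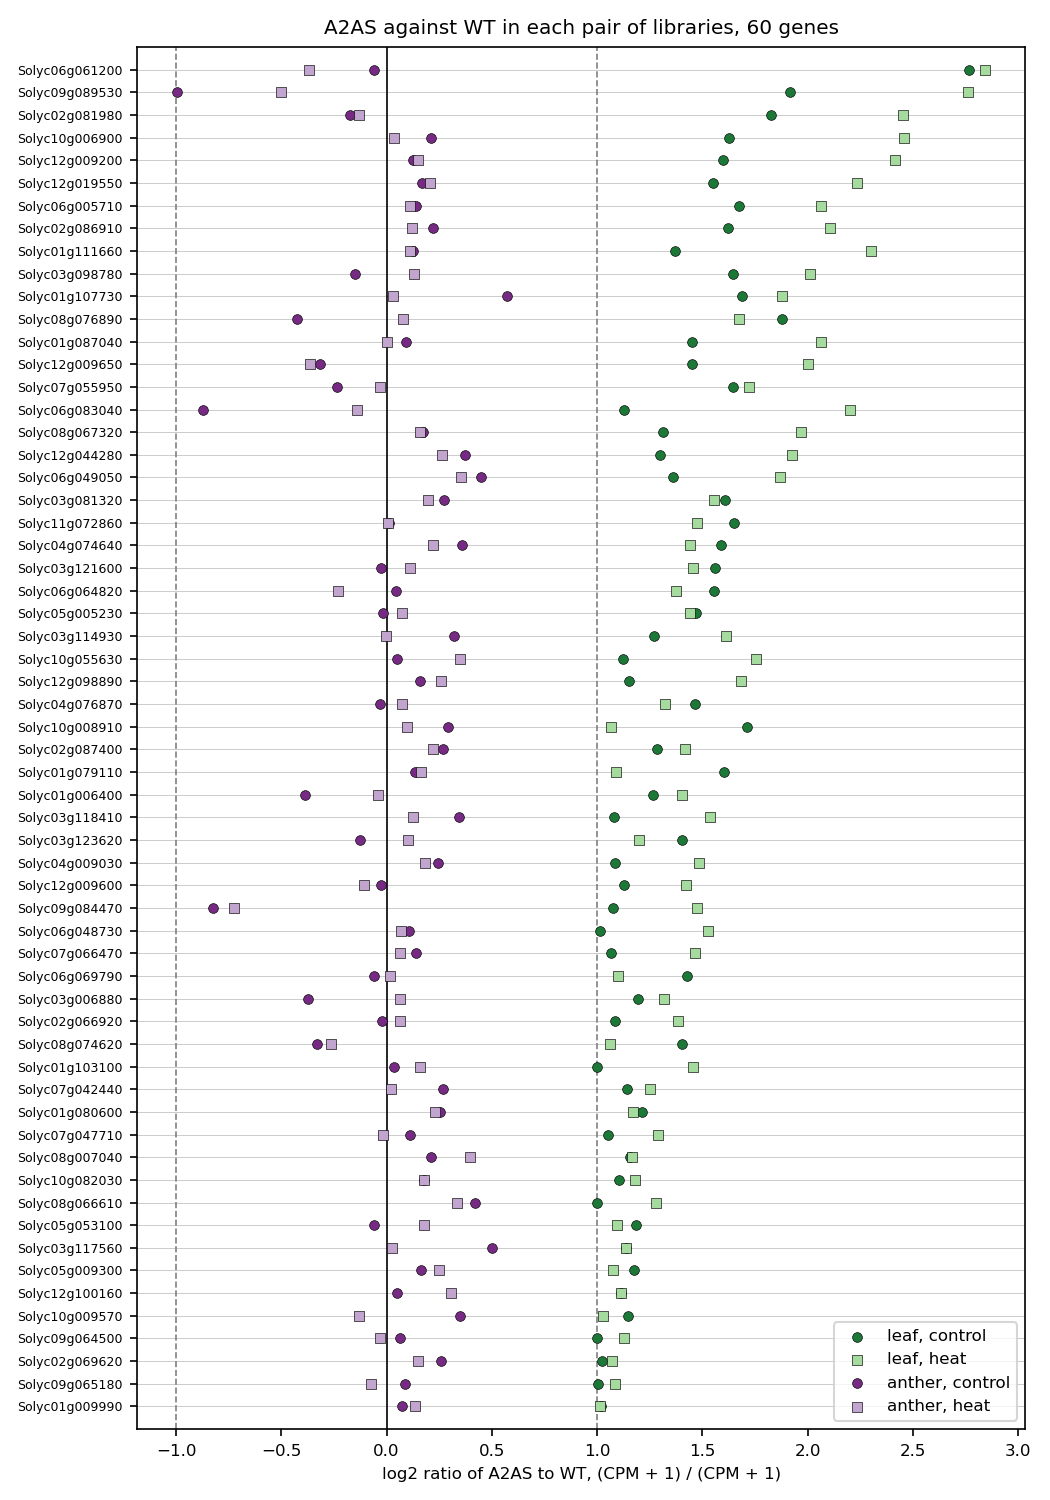
Each row is 1 of the 60 genes and each symbol the log2 ratio of A2AS to WT, on the (CPM + 1) scale, in 1 pair of libraries (green for leaf, purple for anther, circles for control, squares for heat), with rows ordered by the mean leaf ratio and dashed lines at 2-fold. All leaf symbols lie right of the line at 1 by the rule, and all anther symbols lie between the lines at −1 and 1.

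Abundant genes were among the members as well. The highest in A2AS leaf was Solyc04g009030, with 1208 CPM (control) and 909 (heat) in WT and 2562 and 2548 in A2AS. The ratios were 2.12-fold (2.08 to 2.16) and 2.80-fold (2.74 to 2.87). Solyc01g006400 followed, at 663 and 505 CPM in WT leaf and 1594 and 1336 in A2AS leaf. These genes made up 35.2% of the summed level of the 60 in A2AS control leaf. Without both, the sum was still 2.55-fold higher in A2AS control leaf. Solyc12g044280 had 204 and 167 CPM in WT leaf and 505 and 637 in A2AS leaf. Solyc08g067320 had 173 and 160 against 432 and 629, close to the former in level and ratio. The read counts of Solyc08g067320 were whole in none of the 8 libraries, those of Solyc01g006400 in 1 and those of Solyc04g009030 in 2. Reads of these genes may thus be shared with other genes, and their levels are less certain.

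The thresholds cut through a continuum. Just inside the fold condition lay Solyc01g103100 and Solyc08g066610, both with a smaller leaf log2 ratio of 1.00. Just outside were Solyc01g096880 at 1.00 when rounded (0.9998) and Solyc09g083380 at 0.98. For the level condition, Solyc07g047710 (smaller pair mean 10.4 CPM) and Solyc05g005230 (10.5) were inside, and Solyc05g054610 (9.41) and Solyc12g008980 (9.05) outside. For the heat condition, Solyc06g083040 (largest heat log2 ratio 0.79 in size) and Solyc12g009200 (0.76) were inside, and Solyc01g086800 (0.80) and Solyc04g050730 (0.82) outside. Under median-ratio scaling 148 genes met the rule, 55 of them among the 60, and with a pseudocount of 5 it was met by 45 genes, 39 of them among the 60.

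Within the heat limit the members were spread on both sides of 0 in each tissue. In WT leaf 38 of 60 were lower and 22 higher after heat, with a median log2 ratio of −0.15. In A2AS leaf the balance was turned, with 22 lower, 38 higher and a median of 0.12. In anthers 36 were lower in WT and 35 in A2AS, with medians of −0.08 and −0.11. The 8033 leaf-expressed genes had medians of 0.08 and 0.00 in WT and A2AS leaf and 0.05 in both anther pairs, and 91.8% to 95.5% of them lay inside the limit in a given pair. A heat ratio under 0.4 in size in all 4 pairs was found for 25 members. Solyc04g009030 was among the 9 members lower after heat in all 4 pairs, and Solyc09g084470 among the 7 higher in all 4. No test was made on these values, since the rule limits them.

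**Figure D2:**
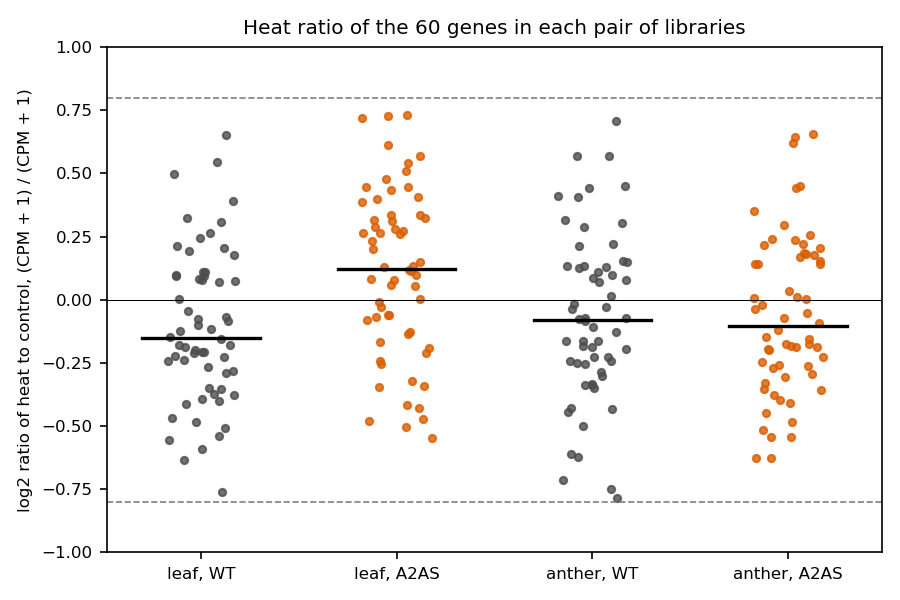
Points are the 60 genes, the vertical axis is the log2 ratio of heat to control on the (CPM + 1) scale in each of the 4 heat pairs, black bars are medians and dashed lines the limit of 0.8. The median is below 0 in WT leaf (−0.15) and in both anther pairs and above 0 in A2AS leaf (0.12).

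In anthers the members did not share the difference seen in leaf. HsfA2 had 24 reads in WT and 16 in A2AS control anthers, a ratio of A2AS to WT of 0.560 (0.278 to 1.10). These reads are too few to tell suppression from its absence. The part of HsfA2 in the anther ratios of the members was not tested. Of the members averaging at least 10 CPM in an anther pair, 0 of 52 in controls and 0 of 53 in heated plants were at least 2-fold higher or lower in A2AS on the log2(CPM + 1) scale. Among all genes 0.695% were that much higher and 1.32% lower in control anthers, and 0.918% and 1.37% in heated anthers. The median log2 ratio was 0.11 in control and 0.09 in heated anthers, next to 0.07 and 0.09 for the leaf-expressed genes, and median-ratio scaling lowers all anther ratios by under 0.1. The ratio stayed under 0.5 in size for 55 members in controls and 58 after heat. In control anthers 23 members (38.3%) had a counting interval above 1 and 10 (16.7%) below it, against 25.5% and 8.68% of the leaf-expressed genes. In heated anthers the counts were 18 (30%) and 8 (13.3%), against 28.5% and 9%. An interval excludes 1 more readily at higher read counts, and the members were more abundant in anthers. In control anthers their median was 52.6 CPM in WT and 55.8 in A2AS, against 27.1 and 28.7 for the leaf-expressed genes. Nothing is read from the difference in these shares.

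The limma test of A2AS against WT over both anther pairs called 0 of 57 members tested and 0% of the 14954 genes tested. An unadjusted p under 0.05 was found for 9 members (15.8%), 5 higher and 4 lower in A2AS, and for 844 genes (5.64%). Each of the 9 had an adjusted p of 0.764 by limma. The fit had only the treatments as repeats. Its residual is the difference between the heat ratios of WT and A2AS anthers, and the rule limited both ratios. The members were thus filtered on the error of this fit, and nothing is read from their share of small unadjusted p-values. In neither A2AS anther library was HsfA2 lower than in WT beyond counting error, with few reads in controls, and in the heated library it was higher. Another 3 members were below the expression minimum of 2 CPM in anthers and were not tested: Solyc03g006880, Solyc05g005230 and Solyc07g047710.

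Higher in A2AS anthers, by small margins, were members such as Solyc06g049050. WT anthers had 72.4 CPM in control and 52.8 in heated plants and A2AS anthers 99.2 and 67.8, a limma estimate of 0.40 ± 0.08 log2 (SE; unadjusted p = 0.0108, adjusted p = 0.764). Solyc12g044280 measured 40.7 and 35.6 CPM in WT and 52.9 and 43.0 in A2AS anthers. Solyc04g074640 measured 38.4 and 37.5 against 49.6 and 43.8, and Solyc08g007040 52.9 and 52.2 against 61.4 and 69.1. In all of these the A2AS values exceeded the WT values within each treatment, by 1.16-fold to 1.37-fold. Solyc01g107730 was higher in control anthers alone, at 149 CPM against 99.8 (1.49-fold), while heated anthers had 127 against 124 (1.02-fold, 0.957 to 1.09).

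Among the members lower in A2AS anthers, Solyc09g084470 was abundant there, at 1982 CPM in control and 2162 in heated WT anthers and 1120 and 1306 in A2AS anthers. WT was 1.77-fold (1.74 to 1.81) and 1.66-fold (1.63 to 1.69) higher, and limma gave −0.78 ± 0.10 log2 for A2AS minus WT (unadjusted p = 0.00208, adjusted p = 0.764). In leaf the order of the genotypes was the reverse, with 53.6 and 56.6 CPM in WT and 114 and 159 in A2AS. Solyc09g089530 had 345 and 289 CPM in WT anthers against 173 and 204 in A2AS. Solyc08g074620 had 451 and 476 against 359 and 396, and Solyc12g009650 had 122 and 113 against 97.7 and 87.7. Solyc06g083040 was lower in A2AS control anthers, at 13.2 CPM against 25.1, and within counting error after heat, at 12.7 against 14.1. In all, 34 members (56.7%) were higher and 10 (16.7%) lower in A2AS in both anther pairs, against 46.5% and 12.8% of the leaf-expressed genes. Under median-ratio scaling the split of the members was 22 higher and 16 lower.

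Between tissues the members were mixed, some higher in leaf and some in anther. Over 4 pairs of anther and leaf libraries, limma called 18 of 60 members higher and 30 lower in anther, with 12 not called. Among all 15220 genes tested, 41.6% were called higher and 23.6% lower in anther. The leaf-expressed genes, which share the leaf level minimum, stood at 33.2% and 31.7%, and the members at 30% and 50%. The median log2 ratio of anther to leaf was −0.60 for the members, 0.10 for the leaf-expressed genes and 0.30 for all genes tested. The rule raises the A2AS leaf levels of the members and so lowers these ratios, and nothing is read from the difference. By the ranges, 16 members (26.7%) had all anther libraries above all leaf libraries, 20 (33.3%) had all below, and 24 overlapped, against 30.3% above and 29.5% below among the leaf-expressed genes. With WT pairs alone, whose fit has 1 pair per treatment, 25 members (41.7%) were called higher and 19 (31.7%) lower in anther. In that fit 28.1% and 23.1% of all genes were called higher and lower, and 20% and 32.5% of the leaf-expressed genes. The median ratio of the members was then −0.031, against −0.099 for the leaf-expressed genes. The order of members and background among genes called higher in anther thus depends on whether A2AS leaf is included. The rule also favours low WT leaf levels and so raises the ratios in the WT pairs. Nothing is read from the difference in that fit either. Under median-ratio scaling 15 members were called higher and 30 lower, and the split of all genes went from 6335 higher and 3597 lower to 4859 and 4740.

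The 18 members called higher in anther ranged in WT leaf from a few CPM to the level of Solyc01g006400. Solyc08g074620 had 8.45 and 13.9 CPM in WT leaf and 24.0 and 30.03 in A2AS leaf, but at 359 to 476 CPM in the 4 anther libraries. The anther ratio was 4.53 ± 0.31 log2 (SE; limma adjusted p = 3.79e-06). Solyc06g064820 had 7.02 and 10.3 CPM in WT leaf, 22.6 and 28.3 in A2AS leaf and 263 to 337 in anthers, a ratio of 4.29 ± 0.32 (adjusted p = 6.49e-06 by limma). Solyc01g107730 had 4.94 and 5.85 in WT leaf, 18.1 and 24.2 in A2AS leaf and 99.8 to 149 in anthers (3.40 ± 0.30, limma adjusted p = 1.65e-05). In 16 of the 18 called higher in anther, both A2AS leaf levels were still below all 4 anther levels.

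The leaf-rich members were near absence in anthers in some cases. Solyc03g006880 was at 10.4 and 13.1 CPM in WT leaf and 25.1 and 34.2 in A2AS leaf, and at 0.219 to 0.645 in anthers (−3.87 ± 0.31 log2, anther minus leaf; limma adjusted p = 9.74e-06). Solyc05g005230 was at 5.12 and 5.92 CPM in WT leaf, 15.9 and 17.8 in A2AS leaf and at most 0.206 in anthers, which is below 3 reads in every anther library except heated A2AS, where it equals 3. Solyc08g076890 had 42.6 and 35.2 CPM in WT leaf and 159 and 115 in A2AS leaf and lay between 4.61 and 6.53 in anthers. Solyc09g065180 had 166 and 116 CPM in WT leaf, 334 and 248 in A2AS leaf and 19.6 to 28.4 in anthers (−3.03 ± 0.23; limma adjusted p = 6.67e-06). Solyc12g009200 had 6.43 to 8.02 CPM in anthers.

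In some genes the anther lay between the leaf genotypes. In 7 members all 4 anther levels were above both WT leaf levels and below both A2AS leaf levels. The rule sets this gap between the leaf genotypes, and the share among leaf-expressed genes was not counted. Nothing is read from the count. For Solyc07g055950 WT leaf had 87.0 and 58.8 CPM, anthers 126 to 153 and A2AS leaf 274 and 196. Solyc06g049050, at 41.4 and 31.7 in WT leaf, 52.8 to 99.2 in anthers and 108 and 118 in A2AS leaf, belonged to the same set.

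**Figure D3:**
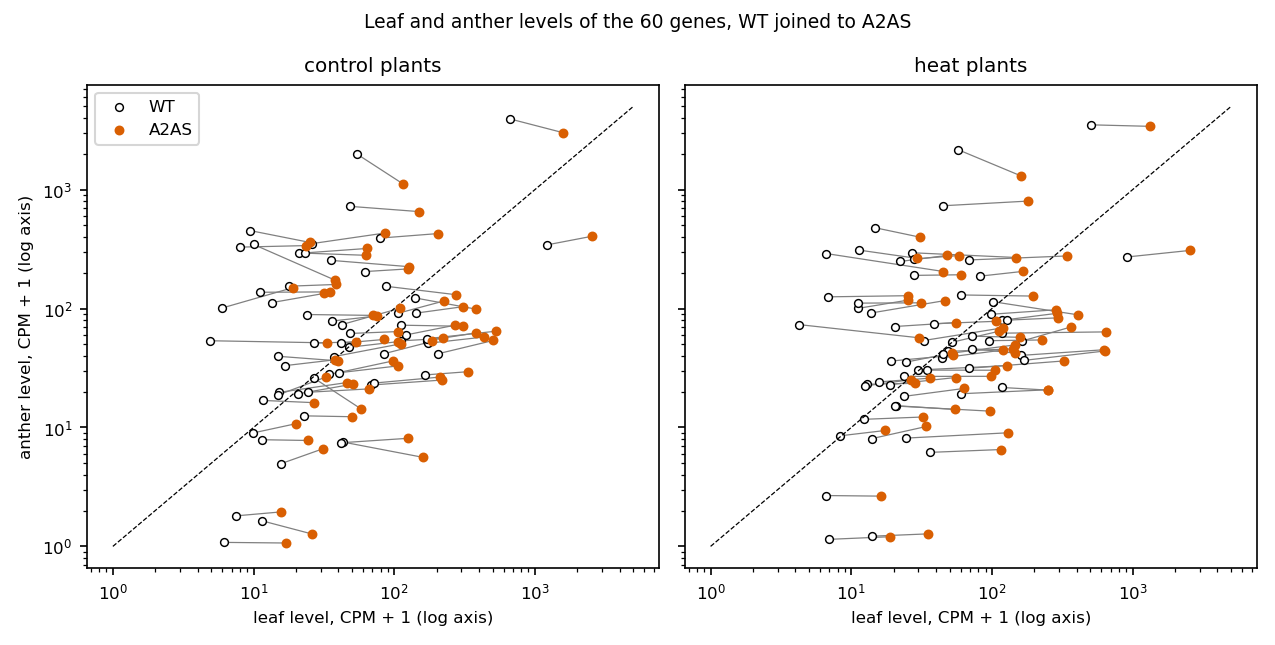
Each gene is drawn as an open circle for WT joined to a filled circle for A2AS, with its leaf level on the horizontal and its anther level on the vertical axis (CPM + 1, log axes), for control plants at left and heated plants at right. The joining lines run to the right and nearly flat, and the genes lie on both sides of the dashed line of equal levels.

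**Figure D4:**
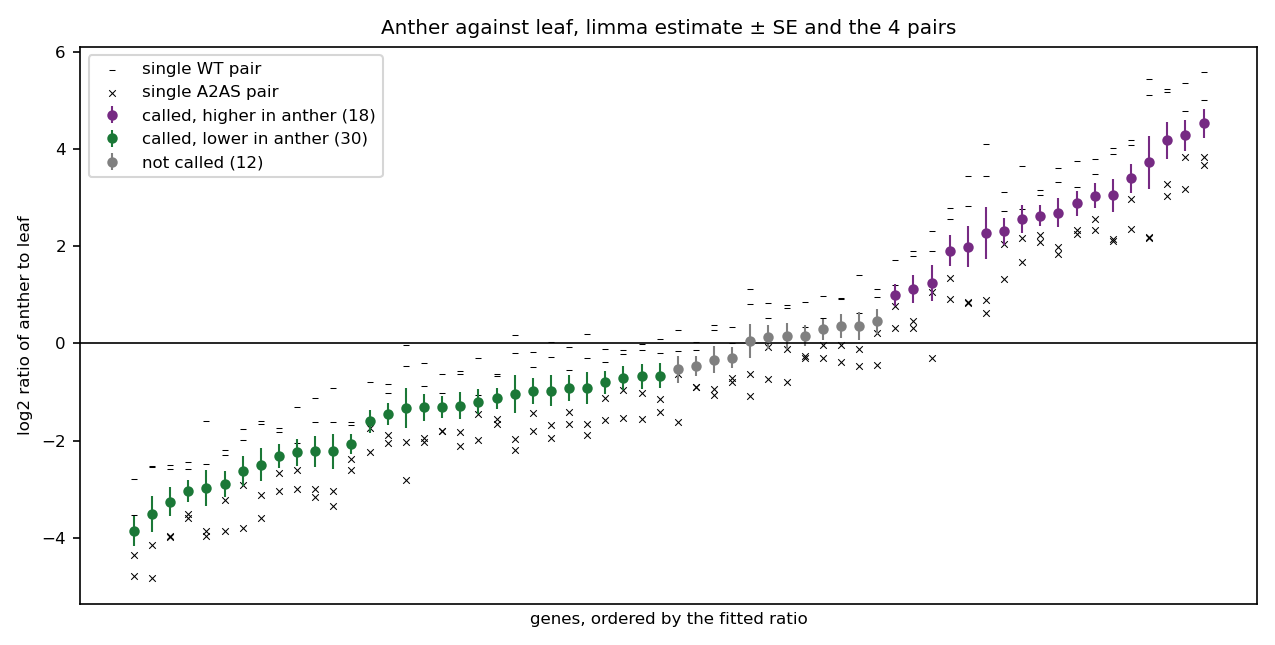
The 60 genes are ordered by the limma estimate of the log2 ratio of anther to leaf, shown as a point with its SE, with dashes and crosses for the single WT and A2AS pairs. The estimates run from −3.87 to 4.53, with 30 called lower, 18 called higher and 12 not called.

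Positions were read from the IDs, in which the digits after Solyc give the chromosome. The members lay on all 12 chromosomes, with 8 each on chromosomes 1 and 3, 7 each on 6 and 12, and 1 on chromosome 11. Only a pair on chromosome 9 and one on chromosome 12 lay within 10 listed genes of each other. On chromosome 12, Solyc12g009600 and Solyc12g009650 were 5 listed genes apart and differed in level, at 22.02 and 139 CPM in WT control leaf and 49.4 and 383 in A2AS control leaf.

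The pair on chromosome 9 opened and closed a run of 8 listed genes, from Solyc09g084470 to Solyc09g089530, of which 7 met both leaf conditions and 2 also the heat limit. ID numbers jump by 5000 within the run, as they do by over 200 at 28 places on this chromosome, so the distance is not known. All 8 genes were higher in A2AS in both leaf pairs, all 8 were lower in A2AS in control anthers, and 7 were lower in heated anthers. Solyc09g089510, past the heat limit, had 246 CPM in control and 57.8 in heated WT leaf against 669 and 657 in A2AS, and 948 and 549 in WT anthers against 377 and 498. Solyc09g084480 was the exception in heated anthers, at 2715 CPM in A2AS against 2598 in WT. None of the 8 had whole read counts in more than 3 libraries. Whether reads were shared among them was not tested.

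**Figure D5:**
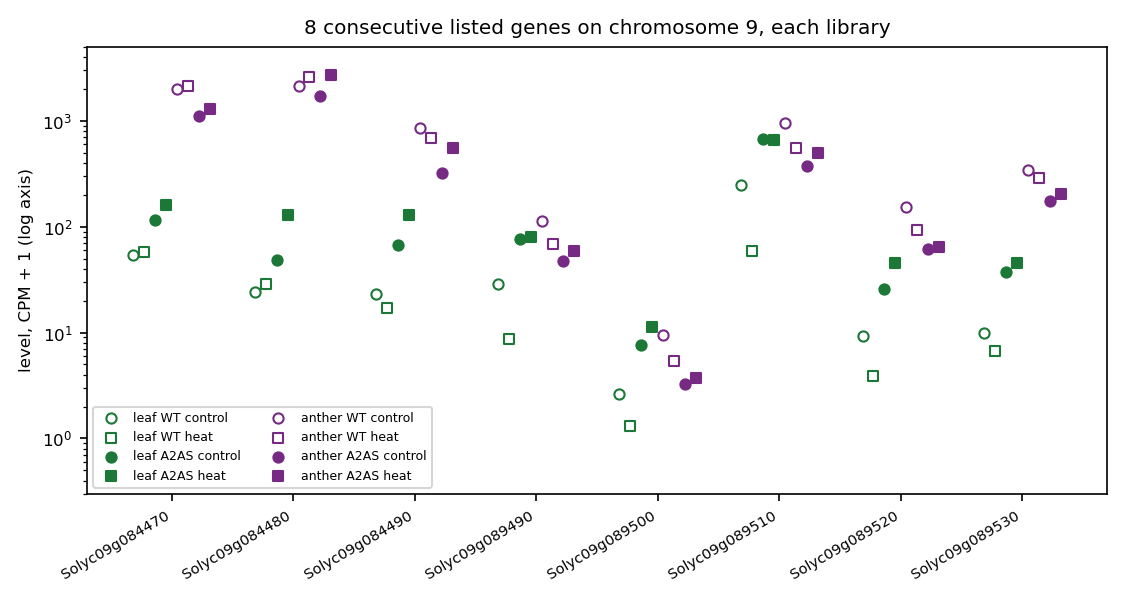
The level (CPM + 1, log axis) of each of 8 consecutive listed genes is shown in all 8 libraries, with green for leaf, purple for anther, open for WT, filled for A2AS, circles for control and squares for heat. Filled green symbols lie above open green ones in every gene, and filled purple circles lie below open purple circles.

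The version number of the gene model, the digit after the dot of an ID, was 1 for 17 of the 60 members (28.3%) and 2 for the rest. Among the 8033 leaf-expressed genes 12.5% had version 1. Nearly all listed genes of chromosomes 10 to 12 had version 1 (5738 of 6119), and these chromosomes held 13 members (21.7%) against 10.1% of the leaf-expressed genes. On the other chromosomes 12.8% of members and 5.29% of leaf-expressed genes had version 1. Of leaf-expressed genes with version 1, 3.09% met both leaf conditions, and of those with version 2, 1.12%. The median leaf ratios of members of version 1 (1.31 in control, 1.69 in heated leaf) and version 2 (1.26 and 1.44) were close in control leaf. Read counts were whole in all 8 libraries for 23 members (38.3%) and for 49.0% of the leaf-expressed genes. The part of the gene models and of shared reads in the leaf ratios was not tested.

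Another 42 genes met both leaf conditions but reached the heat limit in some pair. Their median leaf log2 ratios were 1.44 in control and 1.83 in heated leaf, against 1.29 and 1.46 for the members. On the log2(CPM + 1) scale, 19 of 42 were at least 4-fold higher in heated A2AS leaf. The limit was passed in WT leaf by 21 of them (19 lower and 2 higher after heat) and in A2AS leaf by 13 (4 lower, 9 higher). In WT anthers 16 passed it (14 lower, 2 higher) and in A2AS anthers 14 (12 lower, 2 higher). In anthers their median genotype ratios were −0.14 in control and 0.09 in heated plants. Of those averaging at least 10 CPM in the control anther pair, 1 of 30 was at least 2-fold higher and 4 lower in A2AS. Among all genes the shares were 0.695% and 1.32%. In the heated anther pair 1 of 27 was that much higher and 0 lower, against 0.918% and 1.37% of all genes. The 4 genes lower in control anthers were Solyc09g084490, Solyc09g089490, Solyc09g089510 and Solyc09g089520. All belong to the run on chromosome 9, where read sharing was not tested. Of the 42, limma called 12 higher and 17 lower in anther, where 33.2% and 31.7% of the leaf-expressed genes were so called. The leaf conditions act on these ratios as they do for the members, and nothing is read from the counts. The 15 IDs set aside by the rule held 47419 CPM in WT control leaf and 74703 in A2AS control leaf. Of these, 8 met both leaf conditions, and none was at least 2-fold different between the genotypes in anthers.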

How the data were processed

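The authors deposited 1 table per library, with 29345 genes in CPM, which they call TPM although no gene length enters. Per the labels, poly(A) RNA was bound and the last 500 bp were sequenced. FastQC is named in the submitters' processing notes. Aligner, counting method, genome build and annotation: not given in the sources used here. In each library most low values are multiples of 1 step, which gave the number of reads. Between 77.6% and 83.9% of values above 0 were whole reads within 0.001, so no count model was run. Whether counting used strand is not stated, so antisense transcripts cannot be told apart.

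Log2 ratios were taken after adding 1 CPM to both values, so changes of low genes are understated, while folds are ratios of the CPM values. Exact (Clopper-Pearson) 95% intervals use rounded reads. They cover counting error only, since each group held 1 library, and they treat each read as a separate molecule. Tests used limma 3.58.1 in R 4.3.3 on log2(value + 1) for genes averaging 2 CPM or more over the libraries fitted, with trended empirical Bayes variances and Benjamini-Hochberg adjustment over all genes tested, at 0.05. A2AS was tested in the 4 anther libraries with treatment as a block, and tissue in all 8 with the pair of genotype and treatment as a block. Other conditions serve as repeats, so p-values measure how a difference varies over conditions, not over plants. Both fits were tested on simulated data. Python 3.11.15 was used for the rest.

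The members and lists were chosen with earlier results of these data known. Members named are the 8 with the largest mean leaf ratio, the 5 most abundant in A2AS leaf, the 5 highest and 5 lowest by anther genotype ratio (of those averaging 10 CPM or more in both anther pairs) and by tissue ratio, those nearest the thresholds and those within 10 listed genes of another member. Solyc07g055950, Solyc09g089510 and Solyc09g084480 were chosen after their values were seen. Names of HsfA2 and of the tissue markers rest on published nomenclature. None of 41476 reference rows held a Solyc ID.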

Additional observations from a re-analysis of the deposited data

Results flagged for a closer look

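In 6 members the genotypes stood in opposite order in the tissues: A2AS was higher in both leaf pairs, as the rule requires, and lower in both anther pairs, with counting intervals that exclude 1 in all 4 pairs. The mean anther log2 ratio of A2AS to WT was −0.78 for Solyc09g084470, −0.75 for Solyc09g089530, −0.34 for Solyc12g009650, −0.30 for Solyc08g074620, −0.21 for Solyc01g006400 and −0.15 for Solyc02g081980. More members, 12, had both anther intervals above 1, the order seen in leaf. Among the leaf-expressed genes, with each pair taken alone, the interval was below 1 for 8.68% in control and 9% in heated anthers. It was above 1 for 25.5% and 28.5% of them. Their shares below 1 or above 1 in both pairs were not counted, and nothing is read from either count of members. The difference between the tissues was not tested, because the leaf ratios chose the genes, and each group is 1 library. The ratio of Solyc01g006400 in heated anthers was small, at 3505 CPM in WT against 3403 in A2AS. Solyc09g084470 and Solyc09g089530 belong to the run on chromosome 9, where read sharing was not tested. Solyc08g074620 and Solyc01g006400 likewise had whole read counts in only 1 of the 8 libraries.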

How the results depend on the processing

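The number of genes meeting the rule, 60, was 45 with a pseudocount of 5 (39 shared with the 60), 81 and 48 with a pair mean minimum of 5 and 20 CPM, and 79 with a heat limit of 1. It was 148 under median-ratio scaling (55 shared) and 101 with library totals taken after removal of the 100 top genes (58 shared). With the control leaf pair alone, a choice added after seeing the data, 88 genes met it, and with the heated leaf pair alone 176. In anthers 1 member, Solyc09g089530, was at least 2-fold lower in A2AS controls under median-ratio scaling, and the limma test called 0 genes in each alternative run, with 6 to 9 members at an unadjusted p under 0.05. Solyc09g065180 turned to −0.071 log2 in that test under median-ratio scaling. Between tissues, WT pairs alone gave 25 members higher and 19 lower in anther. Leaving out 1 pair gave 17 to 19 higher and 21 to 31 lower, and no called member changed sign in any alternative run. Solyc06g049050, not called over the 4 pairs, had a tissue ratio of −0.13 under median-ratio scaling and −0.065 to 0.46 with 1 pair left out. The cause was not tested. No replicate number is given in the labels, so no fit with one was made, and the blocks used are treatment and the genotype and treatment pair. Depth limits Solyc03g006880 and Solyc05g005230, at 8 reads or fewer in anthers, and every value of heated A2AS leaf, the smallest library.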
